A study of Mus musculus with 12 samples.

Results

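Cytosolic ribosomal proteins are the protein part of the ribosomes that translate nuclear-encoded mRNA. Of the 27179 genes in the expression table, 81 code for them by name: 50 belong to the large subunit (names starting with Rpl) and 31 to the small subunit (names starting with Rps). They were chosen by symbol alone, as protein-coding mouse genes with these names together with the stalk genes Rplp0, Rplp1 and Rplp2 and the small-subunit gene Rpsa. Ribosomal protein kinases and pseudogenes were left out, and Rpl6l and Rps4l, which the annotation lists as pseudogenes, were therefore not members. No measured value entered the choice.

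The values came from RNA sequencing of whole kidneys of 12 mice, 3 in each of 4 groups. Wild-type mice and FAN1KO mice (γGT1-Cre;Fan1-/-, on a mixed strain background) were 8 to 12 weeks old and received saline or cisplatin, a DNA-crosslinking drug that injures the proximal tubule, as 5 weekly injections into the abdomen of 2 mg/kg each. FAN1 is a nuclease of interstrand crosslink repair, and γGT1-Cre acts in proximal tubule cells, so the other cells of these kidneys keep the gene. The mixed strain background is that of the labels. The paper that re-examined these RNA data describes FAN1KO mice as backcrossed over several generations to a named strain. It does not state whether this holds for the sequenced mice. Whether the wild-type mice carried the Cre transgene is not given in the sources used here.

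Ribosomal proteins are made in near-equal amounts and assemble with ribosomal RNA in the nucleolus, and nearly all of them occur once in each ribosome. Their mRNAs belong to the TOP class, which starts with a C followed by a run of pyrimidines (C or T), and the translation of this class follows mTORC1 activity. Several members also act outside the ribosome: Rpl5 and Rpl11 bind Mdm2 with 5S ribosomal RNA when assembly is disturbed, and Rps27l is a paralog of Rps27 that is induced by p53.

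The start sites of the members were searched for pyrimidine runs. RefSeq start regions (assembly GRCm38.p6) were held for 61 of the 81 members. A run of at least 8 letters that are C or T, on the gene's strand and within 25 bases on either side of any annotated start, was present in 33 of these 61 members (54.1%), compared to 23.1% of the 11115 tested genes with a start region. A match describes these letters only. Windows of 15 bases before and 15 bases from the start are shown for members with such a run and, below them, for the stalk gene Rplp0 and for Rpl41, which have none. Capitals mark the runs.

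Rpl13a, chr7:45128731-45128760, minus strand: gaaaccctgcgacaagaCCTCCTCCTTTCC
Rpl14, chr9:120571502-120571531, plus strand: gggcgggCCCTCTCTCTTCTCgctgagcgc
Rps9, chr7:3704026-3704055, plus strand: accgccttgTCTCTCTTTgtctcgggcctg
Rps27, chr3:90213634-90213663, minus strand: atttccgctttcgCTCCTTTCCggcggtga
Rps27l, chr9:66946071-66946100, plus strand: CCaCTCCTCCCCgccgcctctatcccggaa
Rplp0, chr5:115559452-115559481, plus strand: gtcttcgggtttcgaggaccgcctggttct
Rpl41, chr10:128549154-128549183, minus strand: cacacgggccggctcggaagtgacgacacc

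In these windows the run lies across the annotated start in Rpl14, Rps9 and Rps27, after it in Rpl13a and before it in Rps27l, for which a further annotated start has no run in its window.

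Values are TPM, a transcript's share of all transcripts in a library, which are scaled for gene length so that genes can be compared with each other. Reads assigned to genes were recovered from the steps in these values and numbered 37196407 to 82935965 a library. Fan1 itself was at 1.17 to 3.80 TPM and did not separate the genotypes. Y-linked genes were read in 1 library of each group. FAN1KO cisplatin kidneys stood apart from the other 9 libraries in several respects: mitochondrially encoded genes took 10.2% to 16.7% of their TPM against 18.3% or more elsewhere, the summed TPM of 6 proximal tubule markers was 1454 to 2702 against 3655 or more, that of 3 collecting duct markers was 889 to 1429 against 656 or less, and that of 4 erythroid markers was 6.56 to 73.3 against 535 or more. The sum of 4 macrophage markers, 114 to 237, overlapped that of the other libraries, 33.3 to 157. None of these markers was at 0 in any library. The part of cell composition in the results below was not tested, and fewer cells of a type and less RNA per cell cannot be told apart in whole kidneys.

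As one group, the 81 genes took a larger share of the RNA in FAN1KO cisplatin kidneys than in any other kidney. After saline, their share of total TPM was 1.43%, 1.34% and 1.33% in wild-type mice, and FAN1KO mice had 1.07%, 1.44% and 1.39%. After cisplatin it was 1.31%, 1.61% and 1.72% in wild-type mice, whereas FAN1KO mice reached 2.61%, 2.54% and 2.29%. The 3 FAN1KO cisplatin values lay above all 9 others, and the other 3 groups overlapped. The means after saline were 1.37% ± 0.0544 (wild-type) and 1.30% ± 0.202 (FAN1KO), and after cisplatin 1.55% ± 0.211 and 2.48% ± 0.167 (SD, n = 3). Both subunits took part, since the large subunit went from 0.851% to 1.37% and the small subunit from 0.697% to 1.11% between wild-type and FAN1KO cisplatin kidneys.

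Mitochondrially encoded RNA made up a smaller share in the same 3 libraries, so the share was also taken of all other RNA. It was then 2.91%, 2.94% and 2.75% in FAN1KO cisplatin kidneys and at most 2.11% in the other 9, so these groups still did not overlap.

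**Figure D1:**
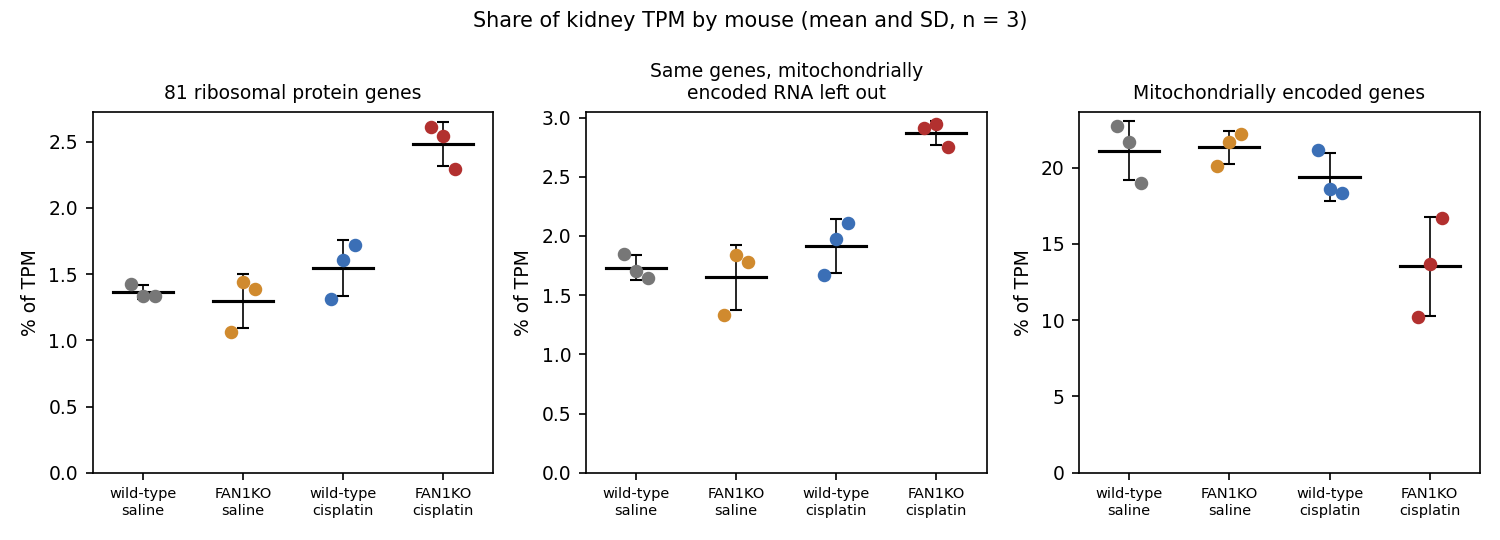
Share of TPM in each of 12 kidneys (points, 3 mice a group) with the group mean and SD, for the 81 ribosomal protein genes (left), for the same genes with mitochondrially encoded RNA left out of the total (centre) and for mitochondrially encoded genes (right). The FAN1KO cisplatin kidneys are highest in the first 2 panels, at 2.29% to 2.61% and 2.75% to 2.94%, and lowest in the last, at 10.2% to 16.7%.

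Levels differed far more between members than between groups. The highest mean TPM over the 12 libraries was 1697, for the stalk gene Rplp1, and the lowest among the 78 members that passed the filter (1 TPM or more in 3 or more libraries) was 1.92, for Rpl3l, a paralog of Rpl3 that is mainly expressed in striated muscle. The median of the 78 was 75.2. The 3 members that did not pass were Rpl39l and Rpl10l, paralogs known from testis, and Rpl39, a core protein of the exit tunnel. Rpl39l was listed at 0 in every library and Rpl10l in 11 of 12, with 0.0935 in FAN1KO cisplatin 1. Rpl39 was between 0 and 1.47 and, with 19 near-identical copies (copies are described below), its level is uncertain.

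Ribosomal protein genes have many processed pseudogenes in the mouse genome, and short reads cannot always be told apart between a gene and its copies. Coding sequences from the GENCODE M21 annotation (GRCm38) were therefore compared with all annotated transcripts. Of the 76 tested members with a usable coding sequence, 71 had at least 1 copy with at least 90% identity over at least 80% of the coding sequence, and Rpl21 had 77. Over all members there were 989 such copy genes, 949 of them annotated as pseudogenes, and only 30 were listed in the expression table. In addition, 29 members overlap a small nucleolar RNA gene in the annotation and 12 overlap another protein-coding gene, and their counts are uncertain to that extent. How the authors' counting treated reads that match several places is not given in the sources used here.

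The level of a member went with its uniqueness. The share of 100-base stretches of the coding sequence found in no other gene correlated with mean TPM at a Spearman's rho of 0.64 over the 76 members, and the number of copies at −0.47. These are descriptions across genes of the same libraries, and genes are not independent replicates. The 22 members in which at least 50% of stretches were unique had a median of 368 TPM. The other 54 had a median of 45.1 TPM. Levels of members with few unique stretches are therefore uncertain, and differences in level between members may not be differences in mRNA.

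**Figure D2:**
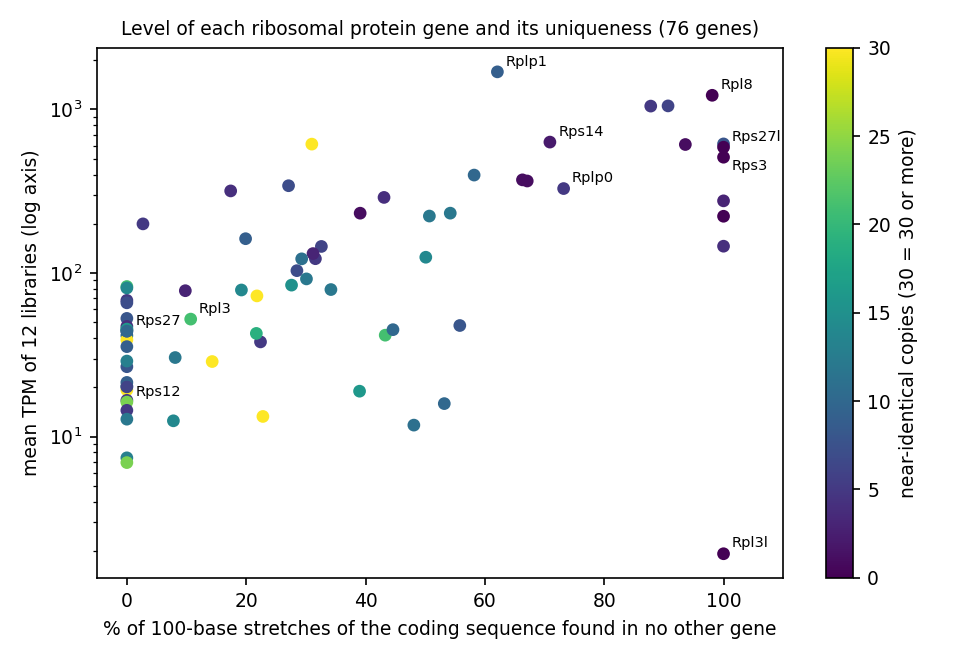
Mean TPM of 12 libraries (log axis) against the percentage of 100-base coding stretches found in no other gene, for 76 ribosomal protein genes (points, shaded by the number of near-identical copies). Of the members drawn above 500 TPM all but Rps2 lie to the right of 50%, while Rpl3l, at 1.92 TPM, is fully unique and low.

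Libraries also differed in this respect. The summed TPM of the 54 less unique members was 51.6%, 50.9% and 51.1% of that of the 22 unique ones in wild-type saline 1, wild-type saline 3 and wild-type cisplatin 1, and 37.2% to 42.7% in the other 9 libraries. These 3 libraries were also the most deeply sequenced, with 56867881, 82935965 and 58008303 reads against 50059883 or fewer. They belong to wild-type mice only, so the members' median and, in some comparisons, the number called are also given without them. Wild-type saline then rests on 1 library, which is assumed to vary like the other groups. No wild-type library with Y-linked reads is then left, while each FAN1KO group keeps 1. Genotype and Y-linked expression are therefore partly confounded in that fit.

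The first comparison asked how kidneys without FAN1 in the proximal tubule differ from wild-type kidneys under cisplatin. Of the 78 members, 47 were higher in FAN1KO kidneys and 0 were lower (limma, adjusted p under 0.05 over all 14972 genes tested), where 19.6% of all genes tested were called higher and 4.37% lower. The members' median log2 fold change was 0.65 (all log2 fold changes are of TPM + 1, which understates the change of low genes), and that of all genes was 0.24. Values did not overlap, with all 3 FAN1KO kidneys above all 3 wild-type kidneys, for 64 members, against 35.7% of all genes, and 0 members were lower without overlap, against 8.6% of all genes. Large-subunit members (30 of 47 called, median 0.67) and small-subunit members (17 of 31 called, median 0.64) had like medians.

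Because TPM sum to the same total in every library, the shift of 0.24 in all genes is part of each value. After median-ratio scaling, which sets the typical gene equal between libraries, the median of all genes was −0.02, the median of the members was 0.35, 71 members were above the median of all genes, and 13 were called higher, against 8.68% of all genes. Without the 3 wild-type libraries described above, the members' median was 0.62, against 0.15 for all genes. With FAN1KO cisplatin 1 or 2 left out, 15 and 16 were called, against 7.81% and 10.3% of all genes. With wild-type cisplatin 1, 2 or 3 left out, 21, 26 and 27 were called, against 9.63%, 15.9% and 15.9%.

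**Figure D3:**
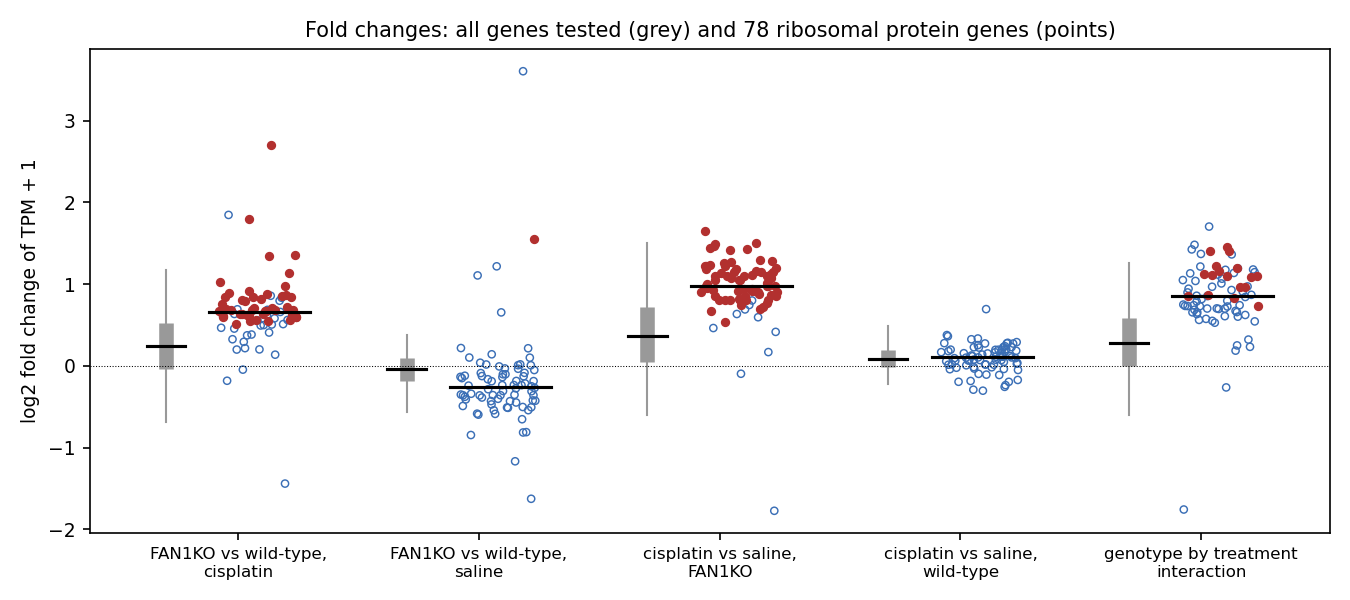
Log2 fold change of TPM + 1 in 4 comparisons and the interaction, for all 14972 genes tested (grey, bar from the lower to the upper quartile, line from the 5th to the 95th percentile, black mark at the median) and for the 78 members (points, filled where called, with their median as a black line). The members' medians are 0.65, −0.26, 0.98, 0.10 and 0.86, against 0.24, −0.04, 0.37, 0.08 and 0.28 for all genes.

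The largest rises among the members called here were those of Rpl3, Rplp0 and Rpl34. Rpl3 is a large-subunit protein near the peptidyl transferase centre. After cisplatin, wild-type mice had 21.2, 16.3 and 15.5 TPM and FAN1KO mice 129, 132 and 100, which gave 2.70 ± 0.28 on the log2 scale (SE, limma adjusted p 0.000337). Rplp0, the base of the stalk that recruits elongation factors, was at 167, 163 and 178 against 606, 623 and 552, a rise of 1.80 ± 0.12 (adjusted p 4.26e-05). The genotypes did not overlap for either gene, and both calls of this comparison held under all the alternatives run. Rpl34, a large-subunit protein, was at 9.04, 9.06 and 10.6 against 36.2, 38.7 and 12.3, a rise of 1.35 ± 0.44 (adjusted p 0.0461). One FAN1KO kidney was close to the wild-type values, and the call was lost with median-ratio scaling (1.06), with voom and without the 3 libraries.

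Rpl13a, which is known for a role in silencing inflammatory mRNAs outside the ribosome, followed treatment and genotype together. After saline it was at 137, 132 and 185 TPM in wild-type and 124, 181 and 156 in FAN1KO mice. After cisplatin it was at 141, 152 and 169 in wild-type and 363, 320 and 334 in FAN1KO mice. The FAN1KO cisplatin kidneys lay above all others, which overlapped. The log2 fold change to wild-type under cisplatin was 1.14 ± 0.16 (adjusted p 0.00142), and 0.83 with median-ratio scaling, where it was still called.

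Rps6, the substrate of S6 kinase, rose by 0.68 ± 0.16 on the log2 scale (adjusted p 0.0139), from 68.8, 65.6 and 78.2 TPM to 122, 127 and 94.7. Rpsa, also known as the laminin receptor, rose by 0.59 ± 0.11 (adjusted p 0.00416), from 88.2, 79.5 and 85.8 to 127, 142 and 116. Rplp2, a stalk protein, rose by 0.51 ± 0.15 (adjusted p 0.0297), from 345, 333 and 382 to 537, 545 and 435. In these genes the 3 FAN1KO kidneys were above the 3 wild-type kidneys, but none of the 3 was called with median-ratio scaling.

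Rpl11 (log2 fold change 0.76, adjusted p 0.0446), Rpl10 (0.54, adjusted p 0.0471) and Rps4x (0.56, adjusted p 0.0441) passed narrowly. Rpl5 (0.67, adjusted p 0.0566), Rps19 (0.66, adjusted p 0.0564), Rps14 (0.69, adjusted p 0.0521), Rps3 (0.68, adjusted p 0.0595), Rps27a (0.63, adjusted p 0.0523) and Rplp1 (0.56, adjusted p 0.0647) narrowly did not. In each of these 9 genes the 3 FAN1KO kidneys were above the 3 wild-type kidneys. Rps19 and Rps14 are known as genes mutated or lost in human anemias. Rpl3l, at 1.26 to 3.30 TPM under cisplatin, had a log2 fold change of −0.05 (adjusted p 0.939).

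The second comparison asked whether the genotypes already differed under saline. Only Rplp0 was called, higher in FAN1KO kidneys, where 0.341% of all genes were called higher, and 0 members were called lower (0.427% of all genes). Before adjustment, 14 members were lower and 4 higher at a p under 0.05, against 5.44% and 2.94% of all genes. Values did not overlap for 8 members that were lower (7.83% of all genes) and 4 that were higher (4.62% of all genes). The members' median was −0.26, against −0.04 for all genes, and 63 of 78 were below 0, as were 57.9% of all genes.

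This position below all genes was not found without the libraries that stood apart, a fit that also leaves no wild-type library with Y-linked reads. Without wild-type saline 1, wild-type saline 3 and wild-type cisplatin 1 the members' median was −0.06 and that of all genes −0.11, 48 of 78 members were above the latter (18 with all libraries), and Rplp0 was still the only call. With single libraries left out it ran from −0.36 to −0.13. The 22 unique members had a median of −0.07 in this comparison and the other 54 of −0.36. FAN1KO saline 1 had the lowest share of TPM in the 81 genes of all 12 libraries, 1.07%.

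Rplp0 followed genotype under both treatments. After saline, wild-type mice had 149, 130 and 136 TPM and FAN1KO mice 339, 472 and 423, a log2 difference of 1.55 ± 0.12 (adjusted p 0.000336). Over both treatments, the 6 wild-type libraries lay between 130 and 178 TPM and the 6 FAN1KO libraries between 339 and 623. The interaction was 0.25 ± 0.17 (adjusted p 0.397), and its sign turned with median-ratio scaling (−0.11) and with voom (−0.12).

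Rpl3 had the same order, at 30.3, 12.9 and 20.9 TPM in wild-type saline and 47.7, 64.2 and 36.9 in FAN1KO saline kidneys. The log2 fold change under saline was 1.22 ± 0.28 (adjusted p 0.107) and did not pass. Its 6 FAN1KO libraries, from 36.9 upwards, were above its 6 wild-type libraries, at 30.3 or less. Rpl30 and Rpl29, named here after their values were seen, also had every FAN1KO library above every wild-type library. Rpl30 was at 15.6 TPM or less in wild-type and 16.1 or more in FAN1KO libraries, and Rpl29 is described below. Neither was called under saline. The share of all genes tested that separate the genotypes in this way was not counted.

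A few members had values that split the libraries within a group. They were chosen after their values were seen, as those with the widest gap between neighbouring libraries, and are given as descriptions. Rpl29 was at 16.3, 9.00 and 13.6 TPM in wild-type mice after saline and 17.9, 11.6 and 9.30 after cisplatin. FAN1KO mice had 123, 141 and 259 after saline and 20.2, 22.7 and 226 after cisplatin. Thus 4 libraries, all FAN1KO, lay at 123 or above and the other 8 at 22.7 or below. The 4 were the 3 FAN1KO saline kidneys and 1 of the 3 FAN1KO cisplatin kidneys. The other FAN1KO values, 20.2 and 22.7, were still above every wild-type value, at 17.9 or less.

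Rpl21 was lower than in any wild-type kidney in 5 of the 6 FAN1KO kidneys, a set that is not that of Rpl29. It was between 16.1 and 20.7 TPM in the 6 wild-type libraries, at 7.03, 2.14 and 8.38 in FAN1KO saline and at 28.7, 2.47 and 2.26 in FAN1KO cisplatin kidneys. Rpl29 has 61 near-identical copies and Rpl21 has 77, with best identities of 99.8% and 99.6%, and 21.8% and 22.8% of their coding stretches were unique. The labels give a mixed strain background, whereas the paper describes FAN1KO mice backcrossed to a named strain. The part of strain background in these values was not tested. Rplp0, with 5 copies and 73.2% unique stretches, was among the members that are easier to tell apart, while Rpl3, with 21 copies and 10.7%, was not.

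**Figure D4:**
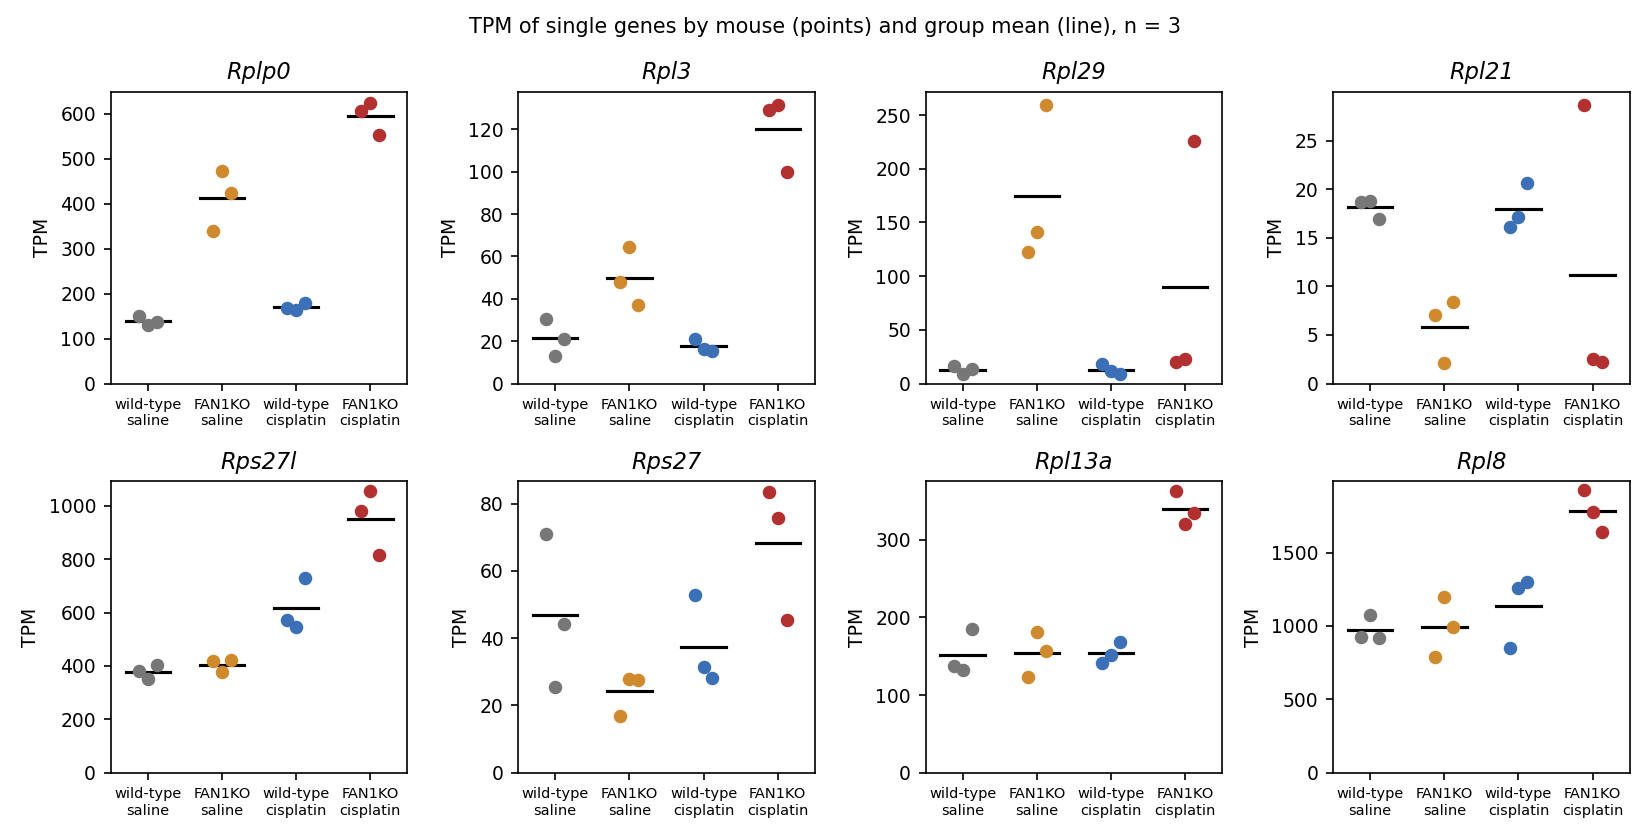
TPM of 8 ribosomal protein genes in each of 12 kidneys (points, 3 mice a group) with the group mean (line). Rplp0 and Rpl3 are higher in all 6 FAN1KO kidneys, Rpl29 and Rpl21 split the FAN1KO kidneys, Rps27l is higher in all 6 cisplatin kidneys, and Rpl13a and Rpl8 are highest in the 3 FAN1KO cisplatin kidneys.

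The third comparison asked what cisplatin changed in FAN1KO kidneys. Of the 78 members, 68 were higher than under saline and 0 were lower, where 34.9% of all genes were called higher and 4.9% lower. The members' median log2 fold change was 0.98, against 0.37 for all genes, and values did not overlap for 69 members that were higher, against 47.4% of all genes, and for 0 that were lower, against 7.43%. Large-subunit members had a median of 0.94 (39 of 47 called) and small-subunit members of 1.01 (29 of 31 called). With median-ratio scaling the median was 0.52 and 34 were called higher, against 14.4% of all genes. With a library left out, 60 to 70 were called, against 21.0% to 37.4% of all genes. This comparison holds no wild-type library, and leaving out the 3 that stood apart changed only the estimate of the spread, with 69 called.

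The largest rises were those of Rpl12, Rps19 and Rpl38. Rpl12, part of the stalk base, was at 7.68, 15.9 and 12.5 TPM under saline and 47.8, 36.0 and 33.1 under cisplatin (log2 fold change 1.65 ± 0.27, adjusted p 0.00138). Rps19, which is needed for maturation of the small subunit, was at 37.4, 54.0 and 42.4 against 140, 132 and 112 (1.51 ± 0.23, adjusted p 0.000868). Rpl38, known for selective translation in development, was at 4.18, 11.8 and 6.94 against 23.1, 22.7 and 19.3 (1.49 ± 0.36, adjusted p 0.00859). All 3 separated the treatments in FAN1KO kidneys. Of their coding stretches 0.0% (Rpl12), 34.2% (Rps19) and 0.0% (Rpl38) were unique, so these levels are uncertain. Rpl38 was at 9.86 to 25.4 TPM in wild-type kidneys of both treatments, so its rise ended within the wild-type range.

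The fold changes of other members by role were 1.20 for Rpl5, 0.77 for Rpl11, 0.54 for Rplp0, 1.05 for Rplp1, 0.94 for Rplp2, 1.15 for Rpsa, 0.80 for Rps6, 1.19 for Rps27a, 0.98 for Rps14, 1.15 for Rpl13a, 1.15 for Rpl10, 0.93 for Rps4x, 0.82 for Rps3 and 1.29 for Rpl3, and each of these was called higher. Rplp1, the member with the highest level, went from 914, 1408 and 1265 TPM to 2532, 2459 and 2341. With median-ratio scaling 7 of these 14 were no longer called, namely Rpl5 (0.75), Rpl11 (0.31), Rplp0 (0.07), Rplp2 (0.48), Rps6 (0.34), Rps3 (0.35) and Rpl3 (0.82). The 10 members not called were Rpl15, Rpl21, Rpl29, Rpl30, Rpl34, Rpl35a, Rpl37a, Rpl3l, Rps23 and Rps29.

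The fourth comparison asked what cisplatin changed in wild-type kidneys. By limma 0 members were called in either direction, where 0.0601% of all genes were called higher and 0.0% lower, and 0 were called by voom on the recovered reads. Before adjustment, 3 members were higher at a p under 0.05 and 0 were lower, against 2.55% and 0.448% of all genes. The median of the members was 0.10 and that of all genes 0.08, and the members' median was 0.00 with median-ratio scaling and −0.02 without wild-type saline 2. Values did not overlap for 4 members that were higher, Rps27l, Rpsa, Rplp0 and Rps12, against 5.2% of all genes, and for 0 that were lower, against 1.08%. Without the 3 libraries that stood apart the members' median was 0.32, against 0.11 for all genes, and again 0 were called.

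Rps27l and Rps27 code for like proteins, and their coding sequences, each of 252 bases, were identical at 192 positions (76.2%). The first 120 bases of both are shown because the difference is what lets reads of the 2 genes be told apart. Capitals mark the 28 positions that differ in this stretch. Rps27 lies on chromosome 3 and Rps27l on chromosome 9, and the sequences are from GENCODE M21.

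Rps27: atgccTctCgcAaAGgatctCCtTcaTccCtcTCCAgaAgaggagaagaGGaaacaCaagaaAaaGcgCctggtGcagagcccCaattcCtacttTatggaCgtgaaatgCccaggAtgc
Rps27l: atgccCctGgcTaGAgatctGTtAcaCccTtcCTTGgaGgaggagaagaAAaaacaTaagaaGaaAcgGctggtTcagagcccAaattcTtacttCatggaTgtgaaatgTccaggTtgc

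Rps27l was at 381, 350 and 404 TPM in wild-type mice after saline and 574, 546 and 729 after cisplatin. In FAN1KO mice it was at 417, 378 and 421 after saline and 980, 1057 and 815 after cisplatin. All 6 cisplatin kidneys were above all 6 saline kidneys, and the FAN1KO cisplatin kidneys were the highest. The log2 fold change by cisplatin was 1.22 ± 0.14 in FAN1KO kidneys (adjusted p 0.000226) and 0.69 ± 0.14 in wild-type kidneys (adjusted p 0.208, unadjusted p 0.000389). The difference of these effects, the interaction, was 0.53 ± 0.19 (adjusted p 0.122). FAN1KO was higher than wild-type by 0.63 ± 0.14 under cisplatin (adjusted p 0.0097), a call that was lost with median-ratio scaling (0.32) and without the 3 libraries that stood apart (0.58, limma adjusted p 0.0609).

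Rps27 was at 70.8, 25.6 and 44.1 TPM in wild-type mice after saline and 52.8, 31.4 and 28.0 after cisplatin. In FAN1KO mice it was at 16.9, 28.0 and 27.7 after saline and 83.3, 75.8 and 45.4 after cisplatin. It was called only for cisplatin in FAN1KO kidneys (1.45 ± 0.38, adjusted p 0.0129) and not with median-ratio scaling (0.99). In wild-type kidneys its log2 fold change by cisplatin was −0.26 (adjusted p 1), and 0.20 without the 3 libraries that stood apart, and the treatments overlapped. Rps27 has 10 near-identical copies, one of them fully identical over the aligned part, and none of its 100-base stretches was unique, whereas all those of Rps27l were. The level of Rps27 is therefore uncertain, and the ratio of the 2 genes was not interpreted.

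The other pairs had 1 measurable partner. Rpl10, which joins late in large-subunit assembly, was at 22.1 to 69.3 TPM over the 12 libraries, and Rpl10l, 84.7% identical in coding sequence, was at or near 0. Rpl3 and Rpl3l were 73.0% identical, and Rpl39 and Rpl39l 85.0%.

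The interaction tested whether the effect of genotype under cisplatin exceeded that under saline. It was called for 17 of 78 members, all higher, where 5.22% of all genes were called higher and 1.02% lower, with a median of 0.86 against 0.28 for all genes. The 3 largest were Rps16 (1.45 ± 0.33, adjusted p 0.0325), Rpl24 (1.41 ± 0.36, adjusted p 0.045) and Rpl37 (1.40 ± 0.37, adjusted p 0.0493). Their levels are uncertain, with 0.0%, 0.0% and 22.4% of coding stretches unique in this order. Rps16, a small-subunit protein, was at 70.3, 40.7 and 71.1 TPM in wild-type mice after saline and 63.0, 57.9 and 57.7 after cisplatin. In FAN1KO mice it was at 28.3, 47.4 and 37.8 after saline and 103, 121 and 89.6 after cisplatin. Its FAN1KO cisplatin values were the highest, and 2 of its 3 FAN1KO saline values were below those of all wild-type kidneys.

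These interaction calls depended on scaling and on single libraries. With median-ratio scaling 1 was called, against 2.22% of all genes called higher, and 0 with voom, against 0.955%. Without the 3 libraries that stood apart the members' median was 0.64, against 0.26 for all genes. Wild-type saline then rests on 1 library, so no interaction calls are read from that fit. With single libraries left out, 3 to 22 were called, where 1.45% to 6.55% of all genes were called higher. The number was 3 when FAN1KO cisplatin 1 or 2 was left out, 4 without wild-type saline 1, 6 without wild-type cisplatin 1 and 7 without FAN1KO saline 3. It was 8 without FAN1KO saline 1 or wild-type cisplatin 2, 9 without wild-type saline 3 and 11 without wild-type cisplatin 3. With a covariate for Y-linked expression, 56 were called, where 27.3% of all genes were called higher.

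**Figure D5:**
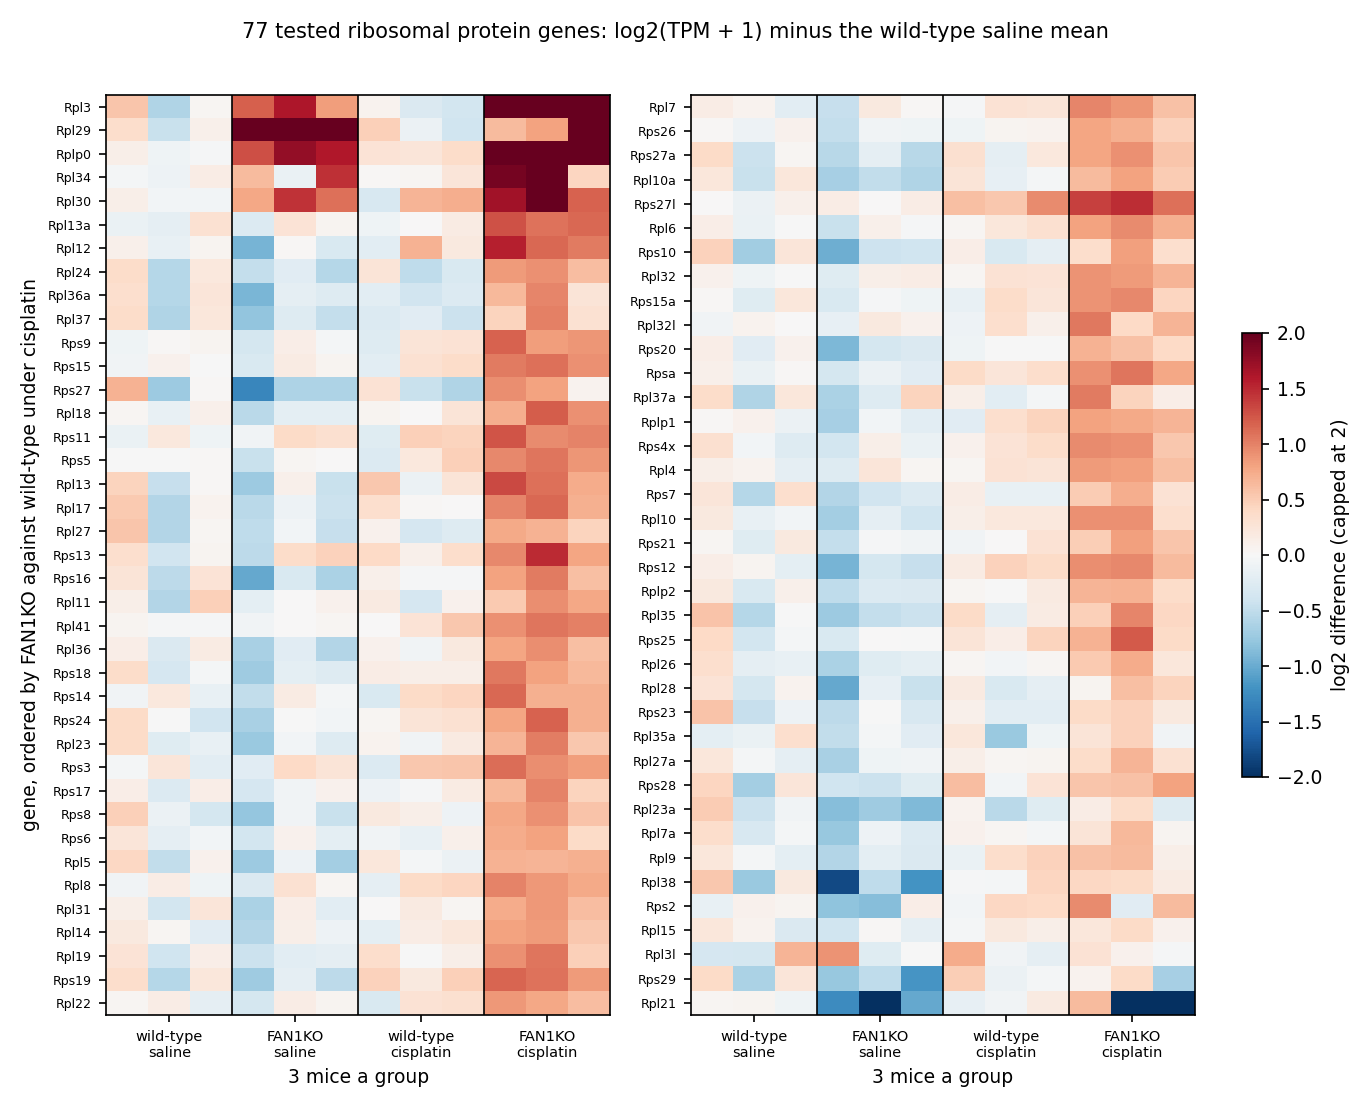
Log2(TPM + 1) of 77 of the 78 tested members (rows, ordered by the fold change of FAN1KO against wild-type under cisplatin) minus the wild-type saline mean, in 12 kidneys (columns, 3 a group, colours limited at 2 in either direction). Most rows are red in the 3 FAN1KO cisplatin kidneys and near white or pale in wild-type cisplatin kidneys, and Rpl21 is blue in 2 of the 3 FAN1KO cisplatin kidneys.

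The comparisons under cisplatin were also read by uniqueness, and the difference between the classes was not tested. In FAN1KO against wild-type kidneys the 22 unique members had a median of 0.66 (17 called higher) and the other 54 had a median of 0.65 (28 called higher). For cisplatin in FAN1KO kidneys the medians were 0.88 (20 called) and 1.04 (46 called), and for the interaction 0.71 and 0.99. Of the 22, 17 still have at least 1 near copy. Rpl8, with no near copy and 98.1% unique stretches, was at 852, 1256 and 1300 TPM in wild-type cisplatin and 1929, 1774 and 1642 in FAN1KO cisplatin kidneys, a rise of 0.67 ± 0.19 on the log2 scale (adjusted p 0.0299). It was chosen after its values were seen, as a member with hardly any shared sequence.

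Other genes of translation were read beside the members, as counts and medians. In FAN1KO against wild-type cisplatin kidneys 19.6% of all genes tested were called higher and 4.37% lower, with a median of 0.24. Ribosomal protein genes with other names (such as Fau and Rack1) rose in FAN1KO against wild-type cisplatin kidneys in 4 of 7 cases, with a median of 0.69. Elongation factors and other TOP mRNAs were called higher in 12 of 16 (median 0.55), among them Pabpc1, the poly(A)-binding protein (0.87, adjusted p 0.000935), and Eef1b2, an exchange factor for elongation factor 1A (0.74, adjusted p 0.00798). Initiation factors were called in 11 of 15 (median 0.54).

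Genes of ribosome production and its control were read in the same way. Ribosome biogenesis genes were called higher in 13 of 28 (median 0.42), among them Ncl, the nucleolar protein nucleolin (0.94, adjusted p 0.00206), and RNA polymerase I subunits and factors in 6 of 13 (median 0.34). Regulators of TOP mRNA translation and mTORC1 were called higher in 4 of 15 (median 0.17). This list mixes genes that promote this activity with genes that restrain it, so its median gives no direction of the activity. Mitochondrial ribosomal protein genes, which serve the separate ribosomes of mitochondria, were called higher in 14 and lower in 2 of 77 (median 0.20). The counts of regulators and of mitochondrial ribosomal protein genes called higher were near the share of all genes, 19.6%. With median-ratio scaling the medians were 0.38, 0.25, 0.24, 0.14, 0.07, −0.12 and −0.10 in the order given, so the direction of the last 2 lists turned. The numbers called higher were then 2, 4, 1, 1, 1, 2 and 1 in this order, with 4 mitochondrial ribosomal protein genes lower. Of all 14972 genes tested, 1300 were called higher and 1154 lower with that scaling.

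For cisplatin in FAN1KO kidneys, 34.9% of all genes were called higher and 4.9% lower. The first 6 lists had 6 of 7, 14 of 16, 10 of 15, 17 of 28, 10 of 13 and 6 of 15 genes called higher and 0 lower. The median of the regulators was 0.27, and −0.17 with median-ratio scaling. Of the mitochondrial ribosomal protein genes, 19 of 77 were called higher and 5 lower, with a median of 0.14, and −0.32 with median-ratio scaling. With that scaling, 1, 5, 3, 6, 3 and 3 genes of the first 6 lists were called higher, and 3 regulators were called lower. Of the mitochondrial ribosomal protein genes 2 were then higher and 17 lower. Of all 14972 genes tested, 2157 were then called higher and 2101 lower. By limma 0 genes of these lists were called under saline or for cisplatin in wild-type kidneys.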

How the data were processed

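The authors deposited 1 table of TPM for 12 whole-kidney RNA libraries. The labels' processing notes name the build mm10 and limma with no role, and the aligner and annotation are not given in the sources used here. Groups came from the sample labels, and all 12 columns of values were used. NCBI Gene numbers were matched to RefSeq names (GRCm38.p6), which left 1904 rows unnamed. The members and all gene lists were chosen with earlier results of these data known, so no p-value is given over them. Named members were a list by role, up to 3 largest rises and 3 largest falls among calls in each comparison, and the highest and lowest mean TPM. Others are marked where they appear. The values of 1 member are not reported here, and it was kept in all counts.

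Of all genes, 14972 reached 1 TPM in 3 or more libraries and were tested by limma 3.58.1 in R 4.3.3 on log2(TPM + 1), with 4 group means fitted to all 12 libraries, a mean-variance trend and Benjamini-Hochberg adjustment over all genes at 0.05. The p-values rest on an estimate of the spread between mice of a group that is shared by all 4 groups of 3 mice. Reads were recovered from the TPM steps, and all 232991 values above 0 came out whole within 0.02 reads. The scale of 1 read is an estimate. In simulated libraries for FAN1KO against wild-type under cisplatin, 195 of 200 genes changed 2-fold were recovered among 14052 tested, with 13 unchanged genes called. The simulated reads had the same fixed spread in every gene, no libraries that stood apart and no shift of all genes. These rates therefore need not hold for the real libraries. Copies were searched with BLAST 2.17.0. Alternatives were a pseudocount of 0.1, no filter, only the libraries of a comparison, scaling by median ratios, a total without mitochondrially encoded genes, no trend, a replicate block, a Y-linked covariate and each library left out in turn. Chosen after seeing the data were limma's voom on the recovered reads (median-ratio library sizes) and leaving out 3 wild-type libraries together.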

Additional observations from a re-analysis of the deposited data

Results flagged for a closer look

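For 17 members the effect of genotype differed between treatments by the interaction test of limma (adjusted p under 0.05 over all genes tested, 5.22% of which were called higher). Of these, 16 are given. The effect under cisplatin minus that under saline, on the log2 scale, was 1.16 for Rpl18, 0.83 for Rpsa, 1.2 for Rpl36, 1.12 for Rpl13a, 1.11 for Rps20, 1.22 for Rpl10a, 0.85 for Rps26 and 1.1 for Rps12. It was 1.45 for Rps16, 0.87 for Rplp2, 1.09 for Rps18, 1.41 for Rpl24, 0.96 for Rps9, 0.97 for Rpl10, 1.4 for Rpl37 and 0.73 for Rpl41. With median-ratio scaling 1 member was called, against 2.22% of all genes, and with voom 0, against 0.955%. Without the 3 most deeply sequenced wild-type libraries the members' median was 0.64, against 0.26 for all genes. Wild-type saline then rests on 1 library.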

How the results depend on the processing

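Counts of members called higher are given for FAN1KO against wild-type under cisplatin, cisplatin in FAN1KO kidneys and the interaction in turn (47, 68 and 17 as reported). They were 13, 34 and 1 with median-ratio scaling (medians 0.35, 0.52 and 0.49) and 13, 31 and 0 with voom (medians 0.35, 0.53 and 0.49). They were 22, 65 and 9 without mitochondrially encoded genes, and 23, 69 and 0 without 3 wild-type libraries. The interaction gave 11 without a trend and 56 with the Y-linked covariate. Under saline, 2 were higher with only the libraries of the comparison (0.0735% of all genes) and 3 with the Y-linked covariate (1.16%). There 1 was lower with that covariate or with median-ratio scaling, where 248 and 68 of all genes were lower. For cisplatin in FAN1KO kidneys 1 was lower with voom or the Y-linked covariate, where 2090 and 1222 of all genes were lower. A pseudocount of 0.1 and no filter kept every count within 1.5 times, and no call of a named member changed sign. Of the medians over the 78 members, that for cisplatin in wild-type kidneys did (0.10 as reported, −0.01 with voom, −0.02 without wild-type saline 2).

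Leaving out 1 library gave 15 to 52 higher and 0 to 1 lower in the first comparison, where 7.81% to 21.0% of all genes were higher. Under saline it gave 1 to 2 higher, against 0.147% to 0.381%. For cisplatin in FAN1KO kidneys it gave 60 to 70 higher and 0 to 1 lower, against 21.0% to 37.4% higher. For the interaction it gave 3 to 22 higher and 0 to 1 lower, against 1.45% to 6.55% higher. A replicate block in the fit gave 31, 69 and 5 called higher, against 15.9%, 32.0% and 2.34% of all genes. Deviations of same-numbered libraries correlated at 0.13 to 0.60 for number 2 and at −0.61 to −0.31 for numbers 1 and 3, so the numbers were not taken as pairs.

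The mean share of TPM after saline (wild-type, FAN1KO) and after cisplatin (same order) was 1.73%, 1.65%, 1.92% and 2.87% without mitochondrially encoded genes and 1.58%, 1.51%, 1.80% and 2.90% with pseudogene rows added. With other-named ribosomal protein genes added it was 1.49% in wild-type saline and 2.68% in FAN1KO cisplatin kidneys. Rpl39 had only 0 to 13 recovered reads a library, while Rpl3l, near 1 TPM as well, had 38 to 248. Rpl39 has 19 near-identical copies, and how reads that match several places were counted is not given, so its level is uncertain.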
